A study of Rattus norvegicus with 12 samples.

Results

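Circular RNAs (circRNAs) from 3 host genes of the insulin and phosphoinositide pathway, Insr, Pik3c2g and Pik3c2a, were followed in rat liver. Their circRNAs were chosen from the deposited table by host gene symbol, together with identifier-named entries that shared their transcript or junction. This gave 64 of the 21876 entries of the table, which described 63 of its 21068 back-splice junctions, the joins by which a circRNA closes on itself. Of the 63 junctions, 33 came from Pik3c2g, 18 from Insr and 12 from Pik3c2a, and together they held 1611 back-splice reads. The junctions followed from the gene names and no measured value, but the genes were chosen with earlier results of these data known.

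The 12 libraries came from liver of wild type Wistar rats with induced diabetes. Every group shared the induction: a high-fat diet for 4 weeks, with 60% of calories from fat, then, after 16 h of fasting, 35 mg/kg of the beta-cell toxin streptozotocin in 1 injection. Rats were kept when fasting glucose exceeded 16.7 mmol/L, and were then assigned to a sham operation or to sleeve gastrectomy, a bariatric operation that leaves the stomach as a narrow tube. The groups were relapse of diabetes after sleeve gastrectomy (n = 2), sleeve gastrectomy sampled at 3 months (n = 5) and sham operation (n = 5). When the relapse and sham groups were sampled is not stated in the sources used here. Separate animals per library are not stated either, so each p-value measures only the spread between samples, which may be technical.

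Insr encodes the insulin receptor, a tyrosine kinase of the cell surface through which insulin restrains glucose output and promotes glycogen and lipid synthesis in hepatocytes. The receptor acts through class I phosphoinositide 3-kinases, made of catalytic and regulatory subunits, and on to the kinase Akt. Pik3c2g and Pik3c2a encode class II enzymes, which are single-chain lipid kinases that make phosphoinositides on endosomes and other membranes. Pik3c2g is expressed mainly in liver, where in mice it sustains the endosomal arm of the Akt response to insulin, and Pik3c2a is expressed widely and acts in clathrin-mediated endocytosis. The circRNAs of these genes are exons or introns of the same transcripts closed into loops, and their counts say nothing by themselves about the linear mRNA or the protein, which were not measured here.

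The libraries held 18473 to 37229 back-splice reads in relapse, 18541 to 30520 after sleeve gastrectomy and 18176 to 30213 in sham. Levels are given as reads-per-million (RPM) of all back-splice reads of a library, summed over a gene's junctions where a gene is named, and are not scaled to length. A count of 0 allowed up to 165 RPM in the smallest library, by counting error alone. Hepatocyte marker genes were present as circRNA hosts, with reads for 9 of 10 and none for Ttr. Their summed level ranged over 19975 to 21918 RPM in relapse, 22258 to 38089 RPM after sleeve gastrectomy and 26234 to 38402 RPM in sham, so that both relapse libraries lay below all other libraries. The markers of cholangiocytes (0 of 6 with reads) and pancreas (0 of 7) were at 0. Of the other lists, Kupffer cells and macrophages had 3 of 8 markers with reads, stellate cells 3 of 8, liver endothelium 5 of 8 and lymphocytes and granulocytes 1 of 7. In bulk libraries, fewer cells of a type, less RNA per cell and fewer circRNAs from the marker genes cannot be told apart.

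None of the 3 hosts passed an adjusted p of 0.05 in any of the 3 comparisons by edgeR's quasi-likelihood test with Benjamini-Hochberg adjustment over 1337 hosts. The background of calls among all tested hosts was 0.15% in sleeve gastrectomy against sham, 0.0748% in relapse against sleeve gastrectomy and 0.15% in relapse against sham. An unadjusted p under 0.05 was reached by Pik3c2g for sleeve gastrectomy against sham, by no member for relapse against sleeve gastrectomy, and by Pik3c2g and Insr for relapse against sham. Over all 1337 hosts, 50, 58 and 79 had such a p in the same 3 comparisons. DESeq2 and limma-voom also called 0 of the 3 in each comparison. The comparisons share libraries, so their values are given side by side and are not independent.

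**Figure D1:**
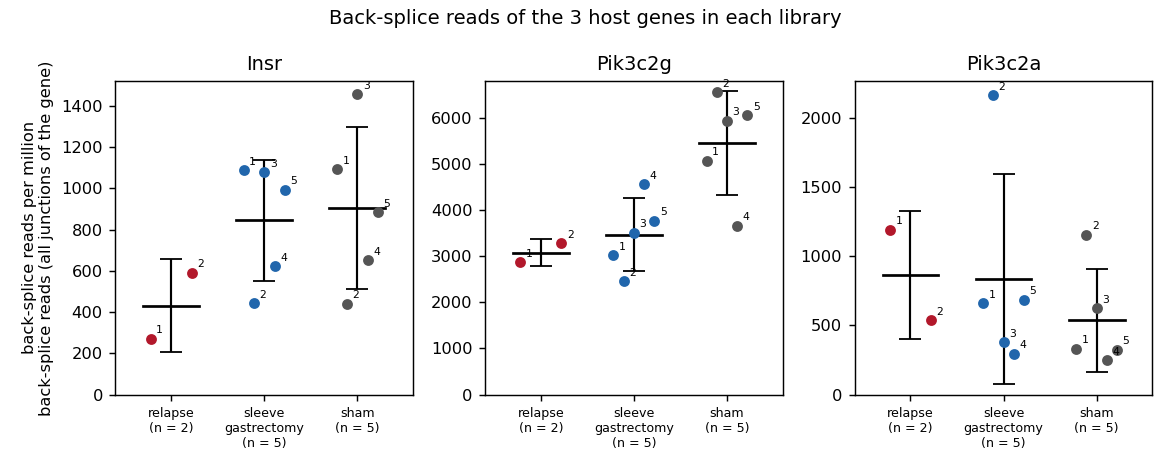
Back-splice levels in RPM of Insr, Pik3c2g and Pik3c2a (vertical axes, one panel per gene, each from 0) in the relapse, sleeve gastrectomy and sham libraries. Points are libraries with their replicate number, horizontal lines are means and vertical bars are 1 SD; the 2 relapse libraries of Pik3c2g, at 2869 and 3277 RPM, lie below all 5 sham libraries, while the groups of Insr and Pik3c2a overlap.

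The receptor gene Insr gave 228 back-splice reads from chromosome 12, minus strand. Relapse libraries 1 and 2 held 5 and 22 reads, sleeve gastrectomy libraries 1 to 5 had 23, 9, 20, 19 and 29 reads, and sham libraries 1 to 5 held 33, 8, 28, 13 and 19 reads. The mean level was 430.8 ± 226.5 RPM in relapse (SD, n = 2), 844.7 ± 294.4 RPM after sleeve gastrectomy (SD, n = 5) and 905 ± 394 RPM in sham (SD, n = 5). Relapse library 1 was the lowest of the 12, but relapse library 2 at 590.9 RPM lay above sleeve gastrectomy library 2 at 442.2 RPM and sham library 2 at 440.1 RPM, so the groups overlapped. The log2 fold change was −1.03 ± 0.52 for relapse against sham (SE, edgeR adjusted p = 0.806) and −0.91 ± 0.52 for relapse against sleeve gastrectomy (SE, edgeR adjusted p = 1). Both values hung on the 2 relapse libraries: they were −0.54 and −0.43 without relapse library 1, and −1.83 and −1.72 without relapse library 2. For sleeve gastrectomy against sham it was −0.13 ± 0.37 (SE, edgeR adjusted p = 0.997), with a 95% interval of −0.84 to 0.59, and its sign turned, to 0.04, when libraries were scaled by the authors' own constants.

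Much of the Insr signal came from a region around exon 3. The authors' table types 3 of its 18 junctions as intronic circRNAs, and these held 117 reads, 51.3% of the gene's total, against 0.25% for Pik3c2g and 0% for Pik3c2a. All 3 intervals nevertheless contained the whole of exon 3, which spans 322 bases. The most-read entry, ciRNA604 (Rnor_6.0 chromosome 12, 1743413 to 1751491), joined the 3′ end of exon 3 to a point 7757 bases inside the intron upstream of it. ciRNA1272 reached 6292 bases into the same intron, and ciRNA912 ran 1925 bases into the intron downstream of exon 3. These entries carry an identifier in place of a symbol, and single reads were 2.26% of the values above 0 in identifier entries against 38.1% in symbol entries, and the part of this in the low values of ciRNA604 was not tested.

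ciRNA604 had 0 and 16 reads in relapse libraries 1 and 2, 6, 4, 9, 5 and 9 reads in sleeve gastrectomy libraries 1 to 5, and 18, 0, 16, 3 and 10 reads in sham libraries 1 to 5. The means were 214.9 ± 303.9 RPM in relapse (SD, n = 2), 287.5 ± 125.7 RPM after sleeve gastrectomy (SD, n = 5) and 408.8 ± 336.1 RPM in sham (SD, n = 5), and all 3 groups overlapped. Relapse library 1 and sham library 2 were at 0, while every sleeve gastrectomy library had at least 4 reads. Its log2 fold change was −0.72 ± 0.93 for relapse against sham and −0.54 ± 0.70 for sleeve gastrectomy against sham (SE, edgeR adjusted p = 0.974 and 0.996). ciRNA1272 had 11 reads, all of them in sleeve gastrectomy library 3, which was also the only library of its group with no read of the exon 2 circle described next.

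The exonic circRNA of Insr with most reads, circRNA3122, consisted of exon 2 alone (Rnor_6.0 chromosome 12, 1793318 to 1793869, span 552 bases). It had 0 and 5 reads in relapse libraries 1 and 2, 8, 2, 0, 8 and 13 reads in sleeve gastrectomy libraries 1 to 5, and 7, 5, 5, 7 and 6 reads in sham libraries 1 to 5. Both relapse libraries lay below the 5 sham libraries on the RPM scale, at a mean of 67.2 ± 95.0 RPM in relapse (SD, n = 2) against 279.4 ± 44.1 RPM in sham (SD, n = 5). Relapse against sham gave a log2 fold change of −1.70 ± 1.14 (SE), which had an edgeR adjusted p of 0.911. The value was −0.92 without relapse library 1, and −5.66 without relapse library 2, where the remaining library had 0 reads. The sleeve gastrectomy libraries spread from 0 to 445.1 RPM around a mean of 236.7 ± 186.6 RPM (SD, n = 5) and overlapped with both other groups. The other 14 exonic junctions of Insr had 1 to 8 reads each. All 5 Insr reads of relapse library 1 came from one of them, circRNA125 of exons 6 to 9, which had 2 further reads in sleeve gastrectomy library 5 and none elsewhere.

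The liver class II kinase gene Pik3c2g was the 19th most-read host of 6021, with 1192 reads from chromosome 4, plus strand. Relapse libraries 1 and 2 held 53 and 122 reads, sleeve gastrectomy libraries 1 to 5 had 64, 50, 65, 139 and 110 reads, and sham libraries 1 to 5 held 153, 119, 114, 73 and 130 reads. The mean level was 3073 ± 288 RPM in relapse (SD, n = 2), 3462 ± 789 RPM after sleeve gastrectomy (SD, n = 5) and 5450 ± 1134 RPM in sham (SD, n = 5). The sham mean was above all 7 relapse and sleeve gastrectomy libraries, but sleeve gastrectomy libraries 4 and 5, at 4554 and 3766 RPM, lay above sham library 4 at 3660 RPM. The relapse and sham groups did not overlap, which makes 1 of the 3 hosts lower without overlap, where 4.79% of all tested hosts were, and 0 higher, where 5.31% were. In relapse against sleeve gastrectomy, 0 of the 3 hosts were higher or lower without overlap (5.24% and 5.09% of all tested hosts). In sleeve gastrectomy against sham it was again 0 of 3 each way (0.449% higher and 0.374% lower). Both relapse libraries lay within the sleeve gastrectomy range.

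For Pik3c2g the log2 fold change was −0.65 ± 0.23 for sleeve gastrectomy against sham (SE, 95% interval −1.09 to −0.21), which ranked 13th of 1337 hosts by p, with an edgeR adjusted p of 0.546. For relapse against sham it was −0.86 ± 0.31 (SE, 95% interval −1.47 to −0.26), with an edgeR adjusted p of 0.511. For relapse against sleeve gastrectomy it was −0.22 ± 0.30 (SE, edgeR adjusted p = 1), and the 95% interval of −0.81 to 0.38 does not show that these 2 groups are alike. Leaving out any one library kept the negative sign in all 3 comparisons, with −0.78 to −0.52 for sleeve gastrectomy against sham. Scaled by the authors' constants, which moved the median of all hosts by 0.17 for sleeve gastrectomy against sham and by 0.33 for relapse against sham, the values were −0.43 and −0.50. The summed hepatocyte marker level given above was also lower in relapse, and its part in the difference from sham was not tested.

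**Figure D2:**
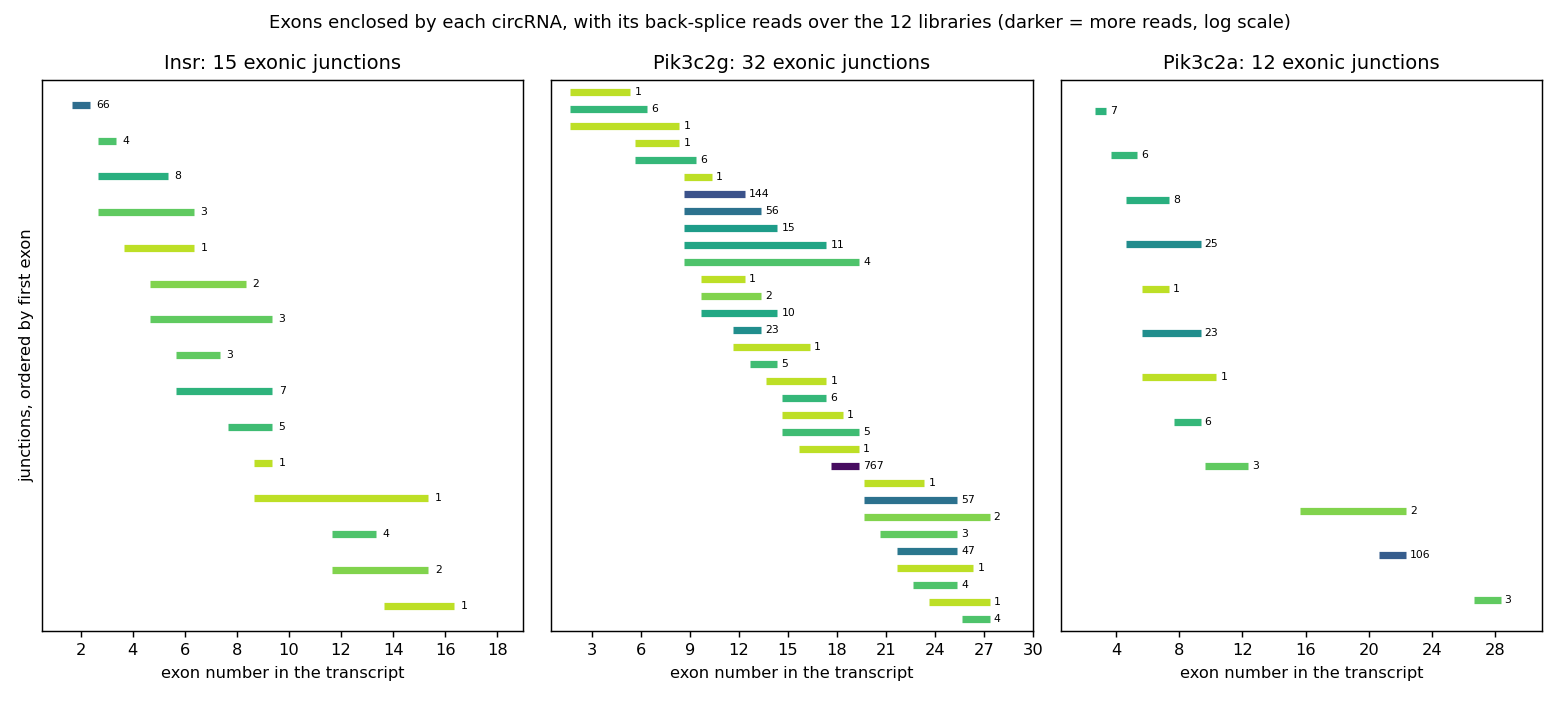
Exons enclosed by each exonic circRNA of Insr, Pik3c2g and Pik3c2a. The horizontal axis is the exon number in the authors' transcript, each bar is 1 junction from its first to its last exon, and the number beside it is its back-splice reads over the 12 libraries, with darker bars for more reads; 767 of the Pik3c2g reads belong to the single circle of exons 18 and 19, and no Pik3c2g circle joins exon 19 or earlier to exon 20 or later.

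Reads of Pik3c2g were concentrated at few boundaries. A single junction, circRNA1579 of exons 18 and 19 (Rnor_6.0 chromosome 4, 173885673 to 173889303), held 767 reads or 64.3% of the total. Exon 9 was the first exon of 6 junctions with 231 reads, ending at exons 10 to 19, and exon 25 was the last exon of 4 junctions with 111 reads. The intron between exons 19 and 20 spans 79764 bases, and none of the 32 junctions with exon numbers crossed it: 23 junctions with 1069 reads lay before it and 9 junctions with 120 reads after it. The remaining junction, ciRNA2306, was typed intronic, had 3 reads and shared its end with circRNA1579 while its start differed by 19 bases.

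circRNA1579 had 41 and 82 reads in relapse libraries 1 and 2, 37, 27, 39, 92 and 67 reads in sleeve gastrectomy libraries 1 to 5, and 89, 79, 77, 48 and 89 reads in sham libraries 1 to 5. Its mean was 2211 ± 11.9 RPM in relapse (SD, n = 2), 2097 ± 632 RPM after sleeve gastrectomy (SD, n = 5) and 3569 ± 845 RPM in sham (SD, n = 5). The relapse libraries lay below every sham library and were nearly equal. From 2 libraries with 41 and 82 reads, the SD of 11.9 RPM is no measure of tight replication. The sleeve gastrectomy group reached into the sham range through library 4 at 3014 RPM. The log2 fold change was −0.72 ± 0.25 for sleeve gastrectomy against sham (SE, edgeR adjusted p = 0.926) and −0.67 ± 0.35 for relapse against sham (SE, edgeR adjusted p = 0.842). For relapse against sleeve gastrectomy it was 0.05 ± 0.34 (SE, edgeR adjusted p = 1).

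The next junction, circRNA4701 of exons 9 to 12 (Rnor_6.0 chromosome 4, 173816404 to 173834461), was not read in relapse library 1, where circRNA1579 had 41 reads. It had 0 and 9 reads in relapse libraries 1 and 2, 13, 13, 11, 14 and 16 reads in sleeve gastrectomy libraries 1 to 5, and 20, 8, 14, 11 and 15 reads in sham libraries 1 to 5. The mean was 120.9 ± 170.9 RPM in relapse (SD, n = 2), 570.6 ± 70.9 RPM after sleeve gastrectomy (SD, n = 5) and 616.0 ± 118.9 RPM in sham (SD, n = 5), and both relapse libraries lay below the other 10. In the edgeR fit the log2 fold change was −1.91 ± 0.68 for relapse against sleeve gastrectomy (SE, edgeR adjusted p = 0.747) and −2.01 ± 0.68 for relapse against sham (SE, edgeR adjusted p = 0.706). A single library decided the call: without relapse library 2 the edgeR adjusted p was 0.0352 against sleeve gastrectomy and 0.0276 against sham, with 0 reads in the library that was left, and without relapse library 1 it was 1 and 0.967. Sleeve gastrectomy against sham gave −0.11 ± 0.44 (SE, edgeR adjusted p = 0.996), and 0.021 when scaled by the authors' constants.

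circRNA2471 of exons 9 to 13 starts at the same deposited position as circRNA4701 and runs on to 173843338, through 1 more exon. It had 6 and 12 reads in relapse libraries 1 and 2, 0, 0, 0, 8 and 2 reads in sleeve gastrectomy libraries 1 to 5, and 4, 4, 8, 5 and 7 reads in sham libraries 1 to 5. Both relapse libraries, at a mean of 323.6 ± 1.75 RPM (SD, n = 2), lay above all 5 sleeve gastrectomy libraries, at 66.1 ± 113.5 RPM (SD, n = 5). They lay inside the sham range, at 269.0 ± 107.6 RPM (SD, n = 5). From 6 and 12 reads, the SD of 1.75 RPM is no measure of tight replication. The log2 fold change was 1.99 ± 1.09 for relapse against sleeve gastrectomy (SE, edgeR adjusted p = 1) and −1.69 ± 0.91 for sleeve gastrectomy against sham (SE, edgeR adjusted p = 0.996). Without sleeve gastrectomy library 4 they were 3.62 and −3.33. circRNA2471 is an identifier entry, a kind with few single-read values, and the part of this in the 3 sleeve gastrectomy libraries at 0 was not tested.

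The 2 most-read circles beyond the long intron both ended at exon 25. circRNA1580 of exons 20 to 25 (Rnor_6.0 chromosome 4, 173969068 to 173993777) had 4 and 3 reads in relapse libraries 1 and 2, 3, 2, 9, 3 and 2 reads in sleeve gastrectomy libraries 1 to 5, and 11, 8, 1, 1 and 10 reads in sham libraries 1 to 5. Sham libraries 3 and 4 were low and the other sham libraries high, and all groups overlapped. Its log2 fold change was −0.96 ± 1.12 for relapse against sham and −0.69 ± 0.81 for sleeve gastrectomy against sham (SE, edgeR adjusted p = 0.974 and 0.996). circRNA4705 of exons 22 to 25 had 47 reads in 10 libraries, the most of any of the 55 junctions that did not pass the filter on low counts.

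The second class II kinase gene, Pik3c2a, gave 191 reads from chromosome 1, plus strand. Relapse libraries 1 and 2 held 22 and 20 reads, sleeve gastrectomy libraries 1 to 5 had 14, 44, 7, 9 and 20 reads, and sham libraries 1 to 5 held 10, 21, 12, 5 and 7 reads. The mean level was 864.1 ± 462.2 RPM in relapse (SD, n = 2), 836.2 ± 760.7 RPM after sleeve gastrectomy (SD, n = 5) and 537.4 ± 373.9 RPM in sham (SD, n = 5). All 3 groups overlapped, and sleeve gastrectomy library 2, at 2162 RPM, stood far above the others of its group. The log2 fold change was 0.61 ± 0.61 for relapse against sham (SE, edgeR adjusted p = 0.979) and −0.01 ± 0.59 for relapse against sleeve gastrectomy (SE, edgeR adjusted p = 1). For sleeve gastrectomy against sham it was 0.62 ± 0.48 (SE, edgeR adjusted p = 0.997), and −0.04 without sleeve gastrectomy library 2.

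The circle of exons 21 and 22 of Pik3c2a, circRNA2083 (Rnor_6.0 chromosome 1, 185306404 to 185307538), held 55.5% of the gene's reads and was found in all 12 libraries. It had 12 and 10 reads in relapse libraries 1 and 2, 8, 27, 6, 5 and 14 reads in sleeve gastrectomy libraries 1 to 5, and 3, 7, 2, 5 and 7 reads in sham libraries 1 to 5. The means were 459.1 ± 269.4 RPM in relapse (SD, n = 2), 534.3 ± 457.4 RPM after sleeve gastrectomy (SD, n = 5) and 232.9 ± 128.9 RPM in sham (SD, n = 5), with overlap between all groups. The log2 fold change for sleeve gastrectomy against sham was 1.19 ± 0.58 (SE), with an unadjusted p of 0.0452 and an edgeR adjusted p of 0.996. Without sleeve gastrectomy library 2 this log2 fold change was 0.58. Its sign was opposite to that of the main Pik3c2g circle. For relapse against sham it was 0.94 ± 0.73 (SE, edgeR adjusted p = 0.933), and 0.35 without relapse library 1.

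A second set of Pik3c2a circles ended at exon 9, with 3 junctions and 54 reads. circRNA2081 of exons 5 to 9 had 1 and 7 reads in relapse, 4, 1, 0, 0 and 0 reads after sleeve gastrectomy, and 4, 3, 5, 0 and 0 reads in sham. circRNA2082 of exons 6 to 9 had 6 and 1 reads in relapse, 0, 8, 0, 0 and 1 reads after sleeve gastrectomy, and 2, 5, 0, 0 and 0 reads in sham. Each circle had 0 reads in several sleeve gastrectomy and sham libraries in which circRNA2083 was read. The log2 fold change of circRNA2082 was 1.23 ± 1.94 for relapse against sham and 0.25 ± 1.56 for sleeve gastrectomy against sham (SE), and at these counts a difference between groups was not detectable.

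Of the 63 junctions of the 3 genes, 8 passed the filter on low counts, and they held 81.6% of the reads. In the whole set, 31 junctions (49.2%) were read in 1 library alone, against 60.2% of all junctions in the table, and 3 were read in all 12 libraries. Among the 8, 0 passed an adjusted p of 0.05 in edgeR's test in each of the 3 comparisons, where the background was 0% of 1519 junctions in each. DESeq2 and limma-voom also called 0 of the 8. An unadjusted p under 0.05 was reached by circRNA1579 and circRNA2083 for sleeve gastrectomy against sham, and by circRNA4701 for relapse against both other groups. Over all junctions, edgeR gave an unadjusted p under 0.05 to 59 in sleeve gastrectomy against sham, to 73 in relapse against sleeve gastrectomy and to 88 in relapse against sham.

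Groups did not overlap on the RPM scale for 1 of the 8 junctions that was higher in relapse than after sleeve gastrectomy (circRNA2471), where 4.74% of tested junctions did so. One was lower (circRNA4701), where 4.48% of tested junctions were. Against sham, 3 of the 8 were lower in relapse without overlap (circRNA3122, circRNA4701 and circRNA1579), where 5.33% of tested junctions were, and 0 of the 8 were higher, where 6.19% were. For sleeve gastrectomy against sham, 0 of the 8 were higher or lower without overlap, and the background was 0.461% higher and 0.527% lower. The 8 junctions come from 3 genes and share libraries, so they are not independent.

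**Figure D3:**
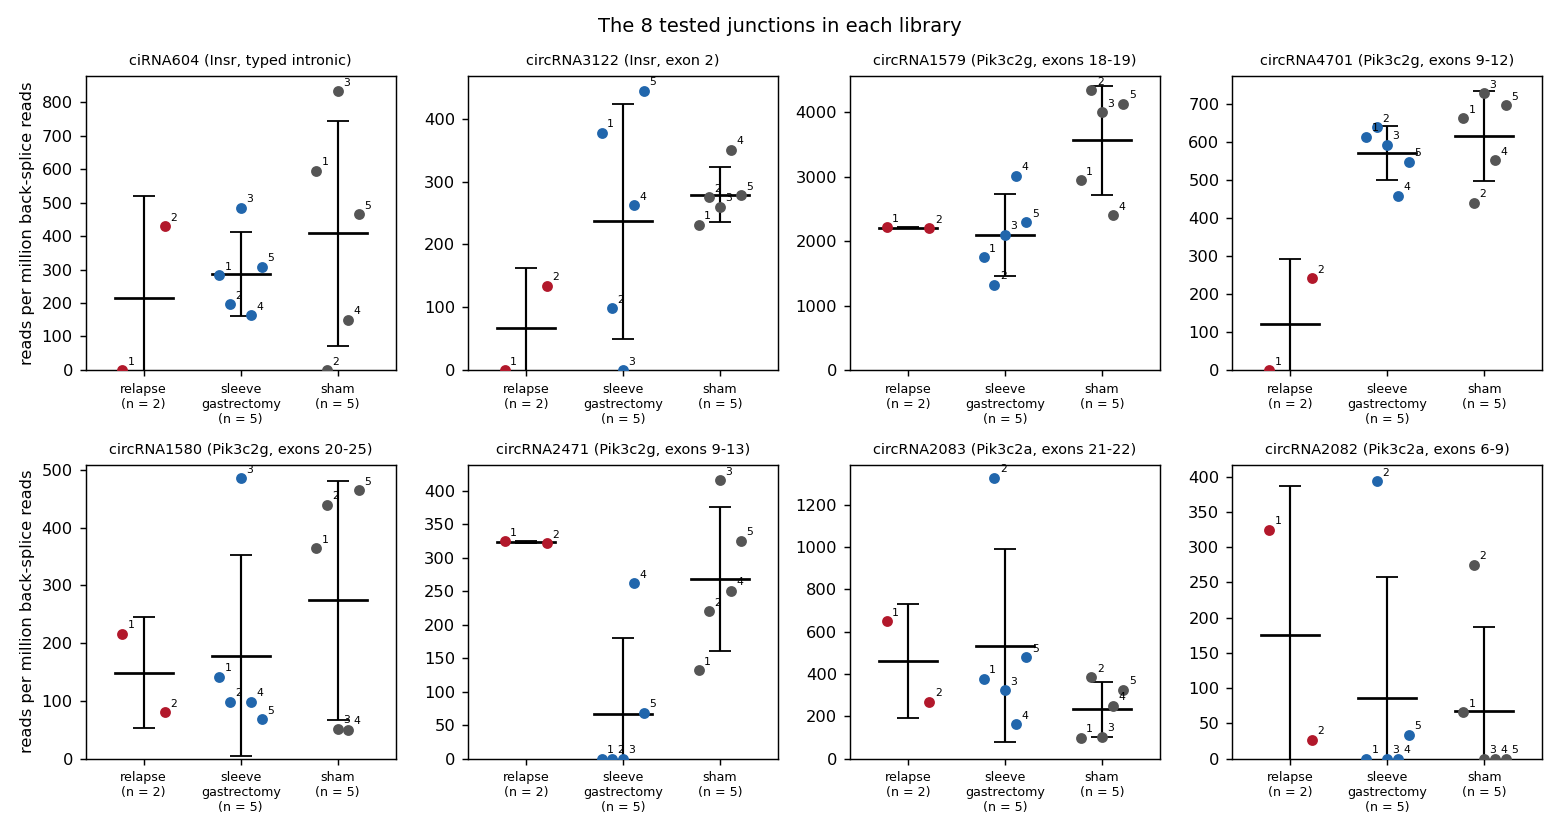
Levels in RPM (vertical axes, each from 0) of the 8 tested junctions in the relapse, sleeve gastrectomy and sham libraries. Points are libraries with their replicate number, horizontal lines are means and vertical bars are 1 SD, cut at 0; both relapse points of circRNA4701 lie below the other 10 libraries, and those of circRNA2471 lie above all sleeve gastrectomy points.

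The share of a gene's reads held by its leading circle was compared between groups as a measure that does not depend on library depth scaling. For Pik3c2g, circRNA1579 held 77.4% and 67.2% in relapse libraries 1 and 2, 57.8%, 54.0%, 60.0%, 66.2% and 60.9% in sleeve gastrectomy libraries 1 to 5, and 58.2%, 66.4%, 67.5%, 65.8% and 68.5% in sham libraries 1 to 5. Both relapse libraries lay above all sleeve gastrectomy libraries. Relapse overlapped with sham with all entries counted, which the values below use, but not with symbol entries alone. The difference was 12.5 percentage points for relapse against sleeve gastrectomy (two-sided exact permutation test, p = 0.0952, adjusted over 9 tests p = 0.310), and 0.0952 is the smallest p that 2 against 5 libraries allow. It was 7.43 points without relapse library 1 and 17.6 points without relapse library 2. For relapse against sham it was 7.02 points (exact permutation p = 0.286, adjusted p = 0.643), with 1.95 and 12.1 points without relapse library 1 or 2, and for sleeve gastrectomy against sham −5.48 points (exact permutation p = 0.103, adjusted p = 0.310). For Pik3c2a, circRNA2083 held 52.3 ± 3.21% in relapse (SD, n = 2), 66.0 ± 12.4% after sleeve gastrectomy (SD, n = 5) and 56.0 ± 40.6% in sham (SD, n = 5). Both relapse libraries, at 54.5% and 50.0%, lay below all sleeve gastrectomy libraries, with a difference of −13.7 points (exact permutation p = 0.0952, adjusted p = 0.310). The sham mean of circRNA2083 averages 30.0%, 33.3% and 16.7% in libraries 1 to 3 with 100% of 5 and of 7 reads in libraries 4 and 5. Pooled over each group, its share was 52.4% in relapse (95% exact binomial interval 36.4% to 68.0%), 63.8% after sleeve gastrectomy (53.3% to 73.5%) and 43.6% in sham (30.3% to 57.7%). For Insr, ciRNA604 held 36.4 ± 51.4% in relapse (SD, n = 2), 34.6 ± 9.47% after sleeve gastrectomy (SD, n = 5) and 37.5 ± 25.1% in sham (SD, n = 5), with libraries at 0% in relapse and sham. The relapse mean averages 0% of 5 reads with 72.7% of 22 reads. With reads pooled over each group the share of ciRNA604 was 59.3% in relapse (95% exact binomial interval 38.8% to 77.6%), 33.0% after sleeve gastrectomy (23.9% to 43.1%) and 46.5% in sham (36.5% to 56.7%), for counting error only.

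**Figure D4:**
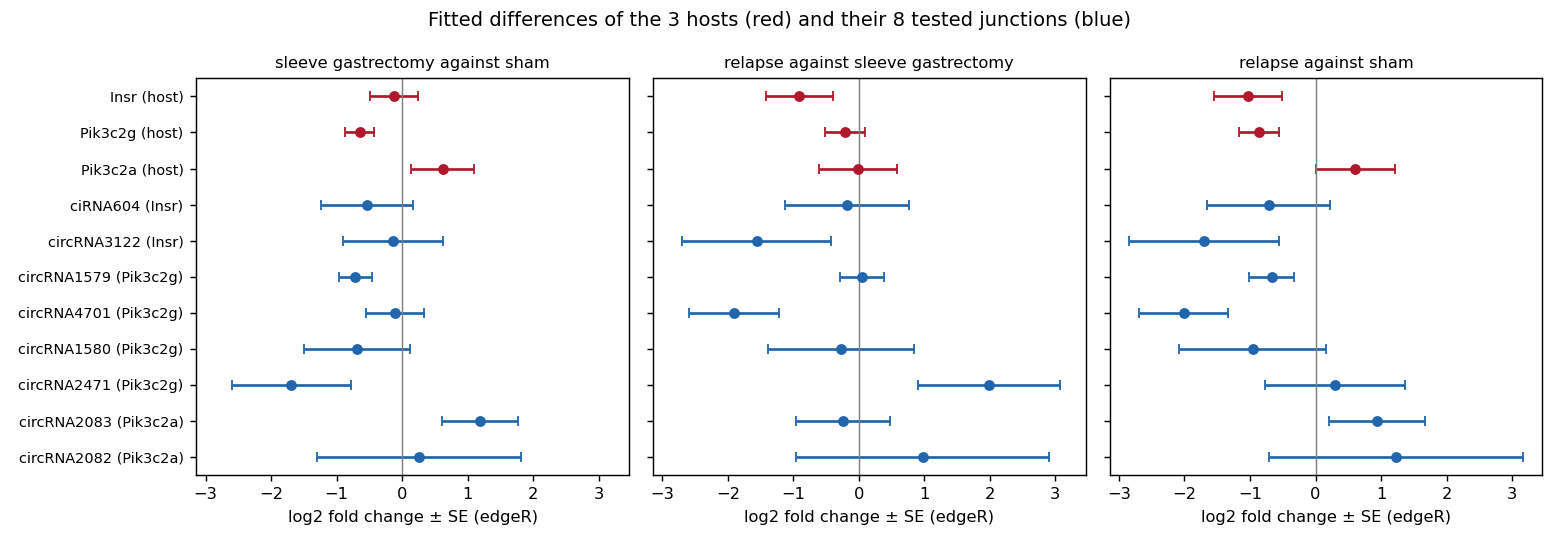
Fitted log2 fold changes (horizontal axis) with their standard errors for the 3 hosts in red and the 8 tested junctions in blue, in one panel per comparison. A positive value means higher in the group named first; Pik3c2g and circRNA1579 lie below 0 against sham in both panels, at −0.65 to −0.86 and −0.67 to −0.72, and none passed the adjusted threshold.

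The hosts whose levels followed each gene most closely over the 12 libraries were found by the root mean square difference of mean-centred log2 levels, among 1336 other hosts. For Pik3c2g these were Dtnb (0.26) and Rnf125 (0.31), where the spread of Pik3c2g itself was 0.46. For Insr they were Mindy3 (0.30) and Psmd11 (0.41), against an own spread of 0.61. For Pik3c2a they were Uimc1 and Myo9b (0.51 each), against 0.78. Uimc1 and Myo9b had only 38 and 34 reads over the 12 libraries, and Psmd11 had 91. Hosts nearer than a flat profile would be numbered 46 for Pik3c2g, 90 for Insr and 103 for Pik3c2a. These profiles share library depth and are a description.

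Only some of the other genes of the pathway had enough reads to be tested. Of 21 receptor and adaptor genes, 13 had reads and 4 were tested; of 13 other phosphoinositide 3-kinase subunits, 7 had reads and 1 was tested. Of 30 downstream kinases and targets, 23 had reads and 4 were tested, and of 37 phosphoinositide kinases and phosphatases, 29 had reads and 6 were tested. None of these 15 hosts passed in edgeR's test in any comparison, higher or lower, and none had an unadjusted p under 0.05.

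For relapse against sham, the 4 receptor and adaptor genes had a median log2 fold change of 0.43, with 4 of 4 positive, while the median over all 1337 hosts was −0.08 with 614 positive. Gab1, the docking protein downstream of the receptor, averaged 1254 ± 88.6 RPM in relapse (SD, n = 2), 938.6 ± 491.5 RPM after sleeve gastrectomy (SD, n = 5) and 758.8 ± 100.7 RPM in sham (SD, n = 5). Its log2 fold change for relapse against sham was 0.68 ± 0.44 (SE, edgeR adjusted p = 0.906). Ide, the insulin-degrading enzyme, had a log2 fold change of 0.17 ± 0.96 (SE) in the same comparison. For sleeve gastrectomy against sham, the median of these 4 genes was 0.04, with 2 of 4 positive.

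The regulatory subunit gene of class I kinases, Pik3r1, averaged 215.5 ± 75.1 RPM in relapse (SD, n = 2), 313.5 ± 154.1 RPM after sleeve gastrectomy (SD, n = 5) and 387.3 ± 232.2 RPM in sham (SD, n = 5). Its log2 fold change was −0.79 ± 0.80 for relapse against sham (SE, edgeR adjusted p = 0.979). Among downstream genes, Pde3b, the phosphodiesterase through which insulin lowers cyclic AMP, averaged 430.4 ± 379.0 RPM in relapse (SD, n = 2), 743.8 ± 160.2 RPM after sleeve gastrectomy (SD, n = 5) and 868.9 ± 231.6 RPM in sham (SD, n = 5). Its log2 fold change for relapse against sham was −0.91 ± 0.51 (SE, edgeR adjusted p = 0.808). Phlpp1, an Akt phosphatase, and Rictor, a subunit of mTOR complex 2, had 0.24 ± 0.61 and 0.49 ± 1.23 (SE) in that comparison.

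Among phosphoinositide kinases and phosphatases, Pi4ka, which makes a precursor lipid at the plasma membrane, and Mtmr3, a phosphatase of endosomal phosphoinositides, had log2 fold changes of −0.07 ± 0.32 and 0.19 ± 0.51 (SE) for sleeve gastrectomy against sham. The corresponding value of Pik3c2g was −0.65, and the lowest among the 6 tested genes of that list was −1.37 ± 0.98 (SE). Of these 6 genes, 3 were positive and 3 negative. The 6 tested genes of that list had a median log2 fold change of 0.01 for sleeve gastrectomy against sham and −0.29 for relapse against sham.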

How the data were processed

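RNA from 12 liver samples had been depleted of ribosomal RNA and treated with RNase R to remove linear RNA, per the labels' protocols. The submitters' processing notes name cutadapt 1.9, FastQC, TopHat2 2.0.10 and the build Rnor_6.0; the caller of back-splice junctions is not given in the sources used here. The deposited table holds raw back-splice read counts per library, with a scaled signal (SRPBM) that the authors deposited beside each count and that was the count times 1 constant per library. Symbol and identifier entries of one junction differ by 1 base in their start, so starts are printed as deposited and may be off by 1 base. The 808 junctions written as 2 entries were summed, and 1449 of 1696 identifiers (85.4%) were joined to a symbol through the gene record, transcript or junction; exon numbers are those of the table.

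Counts were fitted with edgeR 4.0.16 in R 4.3.3 (filterByExpr with a minimum count of 5 and total of 15, TMM, 1 model of 3 group means, robust quasi-likelihood test, Benjamini-Hochberg adjustment, threshold 0.05) over 1337 hosts or 1519 junctions. Alternatives were DESeq2 1.42.0, limma-voom (limma 3.58.1), other scalings and filters, and leaving out libraries. Shares were compared by exact permutation tests (scipy 1.17.1). The scripts were tested on simulated data. The libraries held 18176 to 37229 back-splice reads. Floors for 0 reads and binomial intervals cover counting error only. Intervals of log2 fold changes also include the estimated spread between libraries. Named are all tested junctions, the 3 most-read junctions of each gene, the 2 most alike hosts and up to 3 most-read tested genes of each pathway list, of which 2 are not reported here; other junctions named were chosen after their values were seen. The members and lists were chosen with earlier results of these data known.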

Additional observations from a re-analysis of the deposited data

Results flagged for a closer look

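For the 3 hosts, the 8 tested junctions and the leading-circle shares, 28 groups of 5 libraries were looked at. In 7 of them, a library's gap to the nearest other exceeded 0.71 of the group's range. A chance rate of about 1 in 20 groups goes with this limit only for independent, normally spread values. Many values here come from low read counts, and the groups share genes and libraries. The 7 groups therefore cannot be compared with that rate. Sleeve gastrectomy library 2 stood apart upwards for Pik3c2a (2162 RPM), for circRNA2083 (1327 RPM) and for circRNA2082 (393.1 RPM), all circles of the same gene. Sham library 2 stood apart for circRNA2082 as well, with 275.1 RPM. For Pik3c2g, sleeve gastrectomy library 3 was high for circRNA1580 (485.4 RPM) and sleeve gastrectomy library 4 for circRNA2471 (262.1 RPM). Sham library 1 had the lowest share of Pik3c2g reads in circRNA1579 of its group, 58.2%. Several of these values rest on fewer than 10 reads.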

How the results depend on the processing

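Of 727 alternative values of the 3 hosts and 8 junctions, 685 kept their direction and side of the threshold, 40 had the opposite sign and 2 passed the threshold, both circRNA4701 without relapse library 2. The host genes called were 0 in the first 2 comparisons (sleeve gastrectomy against sham, relapse against sleeve gastrectomy) with a minimum count of 10, DESeq2, the 2 groups alone or SRPBM scaling. With symbol entries alone they were 1 and 0, and with no filter 2 for relapse against sleeve gastrectomy. For relapse against sham they were 1 with a minimum count of 10, the 2 groups alone, symbol entries alone or SRPBM scaling. Without the filter, 2 junctions were called in relapse against sleeve gastrectomy and 1 in relapse against sham, where limma-voom also called 1. SRPBM scaling was chosen after seeing the data and moved the median of all hosts by 0.17, 0.14 and 0.33.

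Opposite signs came from these settings, whose cause was not tested. With SRPBM scaling, the sleeve gastrectomy against sham values were 0.04 for Insr, 0.091 for circRNA3122 and 0.021 for circRNA4701, and the relapse against sleeve gastrectomy values 0.084 for Pik3c2a and 0.13 for ciRNA604. Pik3c2a for relapse against sleeve gastrectomy was 0.022 without TMM, 0.021 with the 2 groups alone, 0.010 without the filter, 0.0044 with DESeq2, 0.17 with limma-voom and 0.0053 with symbol entries alone. A minimum count of 10 gave −0.031 for circRNA1579 in that comparison, and limma-voom gave −0.15 for circRNA2082 in sleeve gastrectomy against sham. With reads pooled over each group, the share differences of relapse against sham were 12.7 points for Insr and 8.74 points for Pik3c2a. Symbol entries alone gave no value for the Insr share, since ciRNA604 is an identifier entry. For the Pik3c2g share they put both relapse libraries, at 75.9% and 87.2%, above all sham libraries, at 61.4% to 74.0%. That difference was 11.5 points, against 7.02 points with all entries.

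None of 9 same-number pairs had a correlation of deviations over 0.1 (−0.0956 to 0.038). This cannot exclude that replicate numbers pair the samples. The deviations of the 2 relapse libraries are mirror images of each other, and low counts add noise to all of them. With a replicate block, 1, 2 and 1 junctions were called (first sleeve gastrectomy against sham, then relapse against sleeve gastrectomy, then relapse against sham), none of them members, and ciRNA604 was 0.24 for relapse against sleeve gastrectomy.

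Leaving out 1 library gave these ranges. Host genes called were 0 to 2, 0 to 1 and 0 to 5, and junctions called 0 to 2, 0 to 9 and 0 to 8, in the same order of comparisons. For sleeve gastrectomy against sham the log2 fold change ranged over −0.28 to 0.077 for Insr, −0.038 to 1.09 for Pik3c2a, −2.26 to 1.80 for circRNA2082 and −0.52 to 0.15 for circRNA3122, 0.58 to 1.44 for circRNA2083 and −3.33 to −1.39 for circRNA2471. For relapse against sleeve gastrectomy it ranged over −0.53 to 0.69 for Pik3c2a, −5.72 to 0.67 for ciRNA604, −0.17 to 0.23 for circRNA1579, −0.95 to 0.42 for circRNA1580, −1.32 to 3.45 for circRNA2082, −0.85 to 0.34 for circRNA2083, 1.68 to 3.62 for circRNA2471, −5.55 to −0.80 for circRNA3122 and −1.72 to −0.43 for Insr. For relapse against sham it ranged over −6.24 to 0.14 for ciRNA604, −1.10 to 2.76 for circRNA2082, −5.66 to −0.92 for circRNA3122, −1.83 to −0.54 for Insr, 0.10 to 1.08 for Pik3c2a, −1.62 to −0.53 for circRNA1580 and 0.35 to 1.32 for circRNA2083. Fitted values against a lone relapse library at 0 reads depend on the prior count. Insr share differences ranged over −12.3 to 2.01, −34.6 to 38.2 and −37.5 to 35.2 points, and that of Pik3c2a for relapse against sham over −13.6 to 7.27 points. Where 1 relapse library remained, it was assumed to vary like the other groups. With 2 relapse libraries and 228 and 191 reads for Insr and Pik3c2a, depth limits these values.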
